A study of Mus musculus with 6 samples.

Results

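The secretoglobins are small secreted proteins of mucosal surfaces, and 4 of them, Scgb1a1, Scgb3a1, Scgb3a2 and Scgb1c1, were followed here by their gene symbols among the 23238 symbols of the count tables. Lungs of wild-type mice were profiled by RNA sequencing. The PM group had received PM and the PBS group phosphate-buffered saline as the vehicle, both by the route that the labels write as i.t. The series title calls the exposure chronic. The labels do not spell out PM, and no dose, duration, strain or age stands in the sources used here. Each group has 3 samples, but PBS replicates 1 and 2 share every value of their 23282 table entries and were counted as 1 sample, so that 3 PM libraries were compared with 2 distinct PBS libraries.

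Secretoglobins fold into helical subunits that usually join as dimers around a pocket for small hydrophobic molecules. In the lung they are made chiefly by club cells, the dome-shaped secretory cells of the airways that also detoxify inhaled compounds through cytochrome P450 enzymes. Scgb1a1 (also called CC10, CC16 or uteroglobin) is the product by which club cells are usually recognised and restrains inflammation and phospholipase A2. Scgb3a2 (UGRP1) is a target of the lung transcription factor Nkx2-1, and Scgb3a1 (UGRP2 or HIN-1) belongs mostly to the larger airways. Scgb1c1 is best known from the nasal mucosa.

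All 4 members were detected in every library, and none passed the main test between the groups. Scgb3a1 stood far higher in all 3 PM libraries than in either PBS library, by a log2 fold of 4.76. Scgb1a1 and Scgb3a2, the abundant members, overlapped between the groups, and Scgb1c1, the rarest, had lower values in all 3 PM libraries than in both PBS libraries. A further 21 symbols of the tables start with Scgb, all on chromosome 7 in RefSeq, and all were at 0 counts in every library. At these depths such a 0 leaves room for a level of 0.348 to 0.430 CPM, depending on the library (3 counts each, counting error only). CPM is a count scaled to a common library total, with totals adjusted by TMM, the trimmed mean of M values.

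Total counts ran from 7410200 to 8798953 in the PM libraries and from 7660937 to 8827202 in the distinct PBS libraries. Epithelial markers of the lung were present in both groups, among them Sftpc of alveolar type 2 cells, at 9232 to 12218 CPM in PM and 9539.8 and 11299 CPM in PBS. The labels do not say whether each sample is an animal of its own; p-values therefore cover the spread of these libraries, which may be technical. In whole tissue, fewer cells of a type and less RNA per cell cannot be told apart.

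Promoter sequence is given for Scgb3a1 and Scgb1c1, since the reference used held no promoter window for Scgb1a1 or Scgb3a2. Scgb3a1 was the member with the widest gap between the groups, and Scgb1c1 the other member without overlap. Each line holds the 250 bases before its annotated start in RefSeq's GRCm38.p6 table, 5′ to 3′ on the strand of the gene. The windows are chr11:49663345-49663594 and chr7:140845315-140845564, both on the plus strand. Capitals mark matches to 5 motifs searched on both strands: TGTTTNC for FOXA factors, CACTTGA for NKX2-1, TTGCNNAA for C/EBP factors, the STAT6 motif of TTC and GAA with 4 bases between them, and TATAAA.
Scgb3a1: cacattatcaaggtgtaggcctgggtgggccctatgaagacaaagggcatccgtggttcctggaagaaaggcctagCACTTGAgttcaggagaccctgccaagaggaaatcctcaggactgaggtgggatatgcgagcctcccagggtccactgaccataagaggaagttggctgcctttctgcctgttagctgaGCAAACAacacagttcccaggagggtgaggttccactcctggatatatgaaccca
Scgb1c1: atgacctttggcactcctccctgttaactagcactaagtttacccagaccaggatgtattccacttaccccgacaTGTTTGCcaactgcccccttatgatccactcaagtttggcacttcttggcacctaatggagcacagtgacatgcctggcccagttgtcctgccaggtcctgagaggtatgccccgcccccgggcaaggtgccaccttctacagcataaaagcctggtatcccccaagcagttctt

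The Scgb3a1 window held CACTTGA, 174 to 168 bases before the start, and TGTTTNC on the opposite strand as GCAAACA, 55 to 49 bases before it. The Scgb1c1 window held TGTTTNC as TGTTTGC, 175 to 169 bases before its start. No match overlapped another. Of 32851 promoter windows of the same length, 17.8% held TGTTTNC, 2.68% CACTTGA, 9.56% TTGCNNAA, 5.85% the STAT6 motif and 12.4% TATAAA. A match is a description of the letters and not of a bound site.

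Scgb1a1 (ENSMUSG00000024653, chromosome 19 at 9083642 to 9087956 in GRCm38.p6, minus strand) was the dominant secretoglobin. It stood at 15499.9, 21219.8 and 30526 CPM in PM replicates 1, 2 and 3, against 19966 and 20448 CPM in PBS replicates 1 and 3. The PBS libraries lay close together, and the PM libraries lay below, near and above them. This single gene took 1.51%, 1.96% and 3.27% of all counts in PM and 1.95% and 2.16% in PBS. Its mean was 22415 ± 7584 CPM in PM and 20207 ± 341 CPM in PBS (SD, n = 3 and 2).

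The log2 fold of Scgb1a1 was 0.15 ± 0.25 SE (adjusted p = 0.855, edgeR, quasi-likelihood, with Benjamini-Hochberg adjustment over 14057 tested genes). The 95% interval of the fold, 0.743 to 1.66, leaves room for both a lower and a higher level. PM replicate 3 set the sign of the estimate: without it the log2 fold was -0.14. Per kilobase of exon, from the GENCODE M21 exon union, Scgb1a1 ranked first among 22197 symbols in every PM library and in PBS replicate 3, and second, after Hba-a1, in PBS replicate 1. Its level on that scale (RPKM) was 32563 to 64130.3 in PM and 41945 and 42959 in PBS.

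Scgb3a1 (ENSMUSG00000064057, chromosome 11 at 49663595 to 49665118, plus strand) was the member with the largest difference. Its counts were 2659, 5158 and 2786 in PM replicates 1, 2 and 3, against 208 and 83 in PBS replicates 1 and 3. These correspond to 311, 739 and 351 CPM in PM and 24.1 and 10.2 CPM in PBS. The groups did not overlap, and the lowest PM library was 12.9 times the highest PBS library. Within groups the spread was wide, with highest-to-lowest ratios of 2.38 in PM and 2.35 in PBS. The mean was 467 ± 237 CPM in PM and 17.2 ± 9.80 CPM in PBS (SD, n = 3 and 2).

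The fold of Scgb3a1 was 27.1, with a 95% interval of 5.51 to 133. The log2 fold of 4.76 ± 0.78 SE ranked 24th from the highest among the signed folds of the 14057 tested genes. It was not past edgeR's quasi-likelihood test over all genes (adjusted p = 0.158), and its p ranked 504th. That test called 0 of the 4 members, against 0.228% of all tested genes (0.142% as higher and 0.0854% as lower). At an unadjusted p below 0.05, edgeR gave 1 member, Scgb3a1, as higher and 0 as lower, against 13.3% of tested genes (7.26% as higher and 6.05% as lower).

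Other tests on the same 5 libraries did call Scgb3a1. DESeq2 gave a log2 fold of 4.77 ± 0.69 SE (adjusted p = 8.15e-09) and limma-voom one of 4.75 ± 0.53 SE (adjusted p = 0.0326). Each called 1 of the 4 members, against 2.72% of tested genes for DESeq2 (1.90% as higher and 0.818% as lower) and 0.121% for limma-voom (0.0854% as higher). With edgeR's spread estimated without the robust option the adjusted p was 0.0189. With all 6 tables as deposited edgeR's adjusted p was 0.0146, but that fit enters 1 PBS library as 2 replicates. In the other edgeR alternatives that kept 2 distinct PBS libraries it lay between 0.0895 and 0.307. Every library left out in turn kept a log2 fold of at least 4.26. Groups that do not overlap were common, however: 15.5% of tested genes had every PM value above every PBS value, and 16.1% had every PM value below.

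Scgb3a2 (ENSMUSG00000038791, chromosome 18 at 43764301 to 43767399, plus strand) was abundant in both groups. It stood at 489.7, 534 and 999 CPM in PM replicates 1, 2 and 3, against 482 and 544 CPM in PBS replicates 1 and 3. PM replicates 1 and 2 lay within the range of the PBS libraries and PM replicate 3 far above it. The mean was 674 ± 282 CPM in PM and 513 ± 43.2 CPM in PBS (SD, n = 3 and 2). The log2 fold of 0.39 ± 0.36 SE was not past the test (adjusted p = 0.705, edgeR), with a 95% interval of the fold from 0.692 to 2.497. It rested on PM replicate 3, without which the log2 fold was -0.0017.

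Scgb1c1 (ENSMUSG00000038801, chromosome 7 at 140845565 to 140846769, plus strand) was counted only 65, 28 and 36 times in PM replicates 1, 2 and 3, against 79 and 64 times in PBS replicates 1 and 3. In scaled form these are 7.60, 4.01 and 4.54 CPM in PM and 9.16 and 7.90 CPM in PBS. All PM values were lower than both PBS values, as held for 16.1% of all tested genes, and PM replicate 1 came close to PBS replicate 3. Their exact 95% Poisson intervals, 5.86 to 9.68 CPM for PM replicate 1 and 6.09 to 10.1 CPM for PBS replicate 3, overlapped. These intervals cover counting error only and do not measure the spread between samples.

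The log2 fold of Scgb1c1 was -0.65 ± 0.34 SE (adjusted p = 0.448, edgeR). The 95% interval of the fold ran from 0.377 to 1.07. Exons of C330022C24Rik overlap those of Scgb1c1 on the opposite strand, and 13.2% of the 31-base stretches of Scgb1c1 transcripts also occur there. Whether counting used strand is not given in the sources used here, so reads of the overlap cannot be assigned to either gene. C330022C24Rik had 7, 10 and 9 counts in PM and 4 and 0 in PBS. Transcripts of the other 3 members shared no 31-base stretch with any other GENCODE gene.

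**Figure D1:**
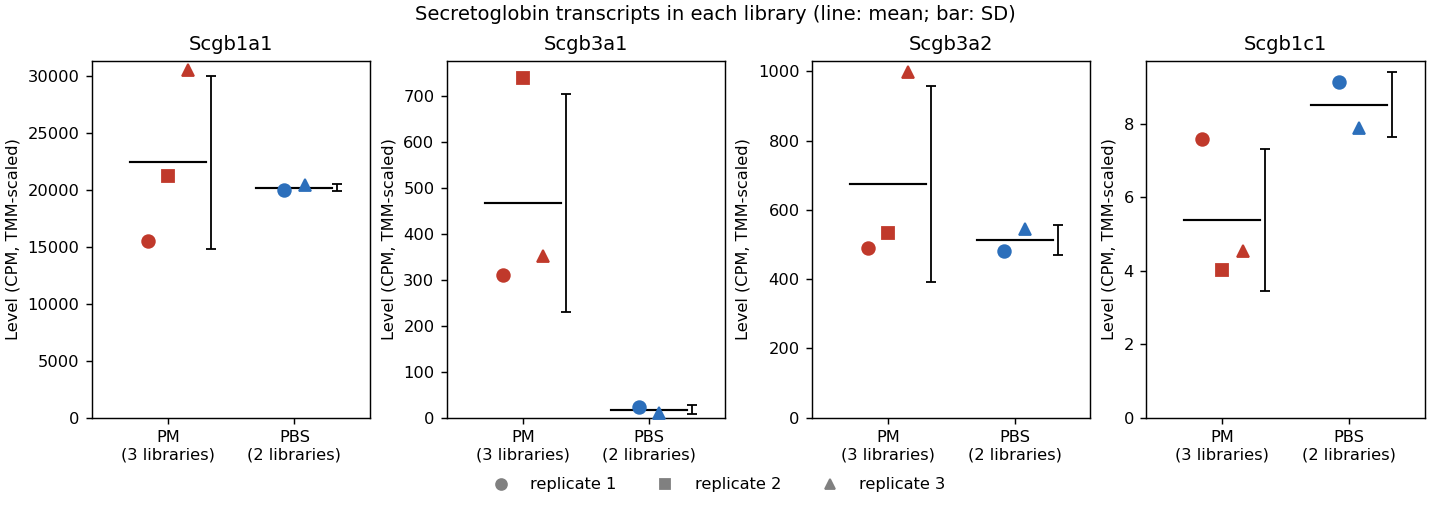
Level of each secretoglobin (vertical axis, TMM-scaled CPM, starting at 0) in the 3 PM and 2 distinct PBS libraries, with 1 symbol per replicate number, a line for the group mean and a bar for 1 SD. Scgb3a1 stood at 311 to 739 CPM in PM and at 10.2 and 24.1 CPM in PBS. Scgb1a1 and Scgb3a2 were highest in PM replicate 3. Scgb1c1 had lower values in the PM libraries but was not past the test (adjusted p = 0.448, edgeR).

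Per kilobase of exon, Scgb1a1 was far ahead of the others in both groups. The order Scgb1a1, Scgb3a2, Scgb3a1, Scgb1c1 held in PM replicates 1 and 3 and in PBS replicate 1, Scgb3a1 exceeded Scgb3a2 in PM replicate 2, and Scgb3a1 was slightly below Scgb1c1 in PBS replicate 3. In PM, Scgb3a1 stood at 519.7, 1236 and 587 RPKM and Scgb3a2 at 556, 607 and 1136 RPKM, levels that overlapped. In PBS, Scgb3a1 stood at 40.3 and 17.1 RPKM, far below Scgb3a2 at 548 and 618 RPKM. There Scgb3a1 overlapped with Scgb1c1, at 20.1 and 17.4 RPKM, whereas in PM Scgb1c1 was lowest, at 8.82 to 16.7 RPKM.

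The share of Scgb3a1 in the summed RPKM of the 4 members was 1.54%, 2.66% and 0.892% in PM replicates 1, 2 and 3, against 0.0947% and 0.0393% in PBS replicates 1 and 3. Scgb1a1 made up 96.0% to 97.4% of the sum in PM and 98.5% and 98.6% in PBS. Scgb3a1 was thus a small share of the family in both groups. All 4 members together took 1.59%, 2.08% and 3.41% of all counts in PM and 2.003% and 2.22% in PBS.

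Ratios to Scgb1a1 within a library do not depend on how libraries are scaled. Scgb3a1 counts were 2.005%, 3.48% and 1.15% of Scgb1a1 counts in PM replicates 1, 2 and 3, against 0.121% and 0.0501% in PBS replicates 1 and 3. The mean log2 ratio differed by 4.69, at -5.64 ± 0.80 in PM and -10.33 ± 0.90 in PBS (SD, n = 3 and 2). No PM ratio overlapped a PBS ratio. The exact permutation test gave p = 0.2, two-sided, which is the smallest p that 3 against 2 libraries allow, and p = 0.6 after adjustment over the 3 ratios.

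Scgb3a2 kept close to Scgb1a1 in all libraries. Its counts were 3.16%, 2.52% and 3.27% of those of Scgb1a1 in PM and 2.42% and 2.66% in PBS, with a difference of 0.23 in mean log2 ratio (exact permutation p = 0.4, two-sided). PM replicate 3, highest in both genes, had a ratio close to that of PM replicate 1. The ratio of Scgb1c1 to Scgb1a1 was 0.0490%, 0.0189% and 0.0149% in PM and 0.0459% and 0.0386% in PBS, a difference of -0.81 in mean log2 ratio with overlapping groups (exact permutation p = 0.6, two-sided). Cyp2f2 is the cytochrome P450 of club cells that activates naphthalene. Set against Cyp2f2, Scgb3a1 differed by 4.72 in mean log2 ratio without overlap (exact permutation p = 0.2, two-sided, the smallest possible). Exons of Gm15883 overlap those of Cyp2f2 on the opposite strand, and 10.9% of the 31-base stretches of Cyp2f2 also occur there.

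Scgb3a2 had a similar difference with either denominator, at 0.23 in mean log2 ratio against Scgb1a1. Its counts were 48.4%, 53.2% and 57.3% of Cyp2f2 counts in PM replicates 1, 2 and 3, against 45.7% and 42.6% in PBS replicates 1 and 3, a difference of 0.26 in mean log2 ratio. Here the groups did not overlap, unlike the ratio to Scgb1a1 (exact permutation p = 0.2, two-sided, the smallest possible). Scgb1c1 had a difference of -0.78 against Cyp2f2 and Scgb1a1 one of 0.03 (exact permutation p = 0.4 and 1.0, two-sided).

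**Figure D2:**
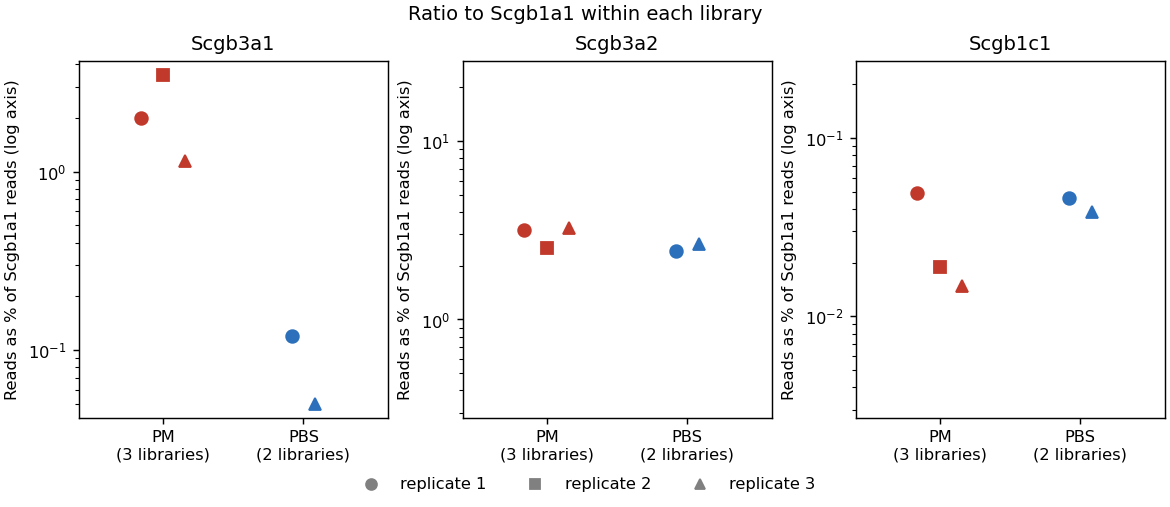
Counts of 3 secretoglobins as a percentage of Scgb1a1 counts in the same library (vertical log axes, each spanning the same number of decades), for 3 PM and 2 distinct PBS libraries, with 1 symbol per replicate number. The Scgb3a1 ratio was 1.15% to 3.48% in PM and 0.0501% and 0.121% in PBS, while the Scgb3a2 and Scgb1c1 ratios overlapped between the groups.

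The folds of the members were recomputed under 15 other settings. Those of Scgb3a1 stayed between 4.26 and 5.51 on the log2 scale, with 4 settings past an adjusted p of 0.05. The 4 include the fit with all 6 tables as deposited, which enters 1 PBS library as 2 replicates. Folds of Scgb1c1 stayed below 0 on that scale. Only leaving out PM replicate 3 brought Scgb1a1 and Scgb3a2 to a log2 fold below 0.

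**Figure D3:**
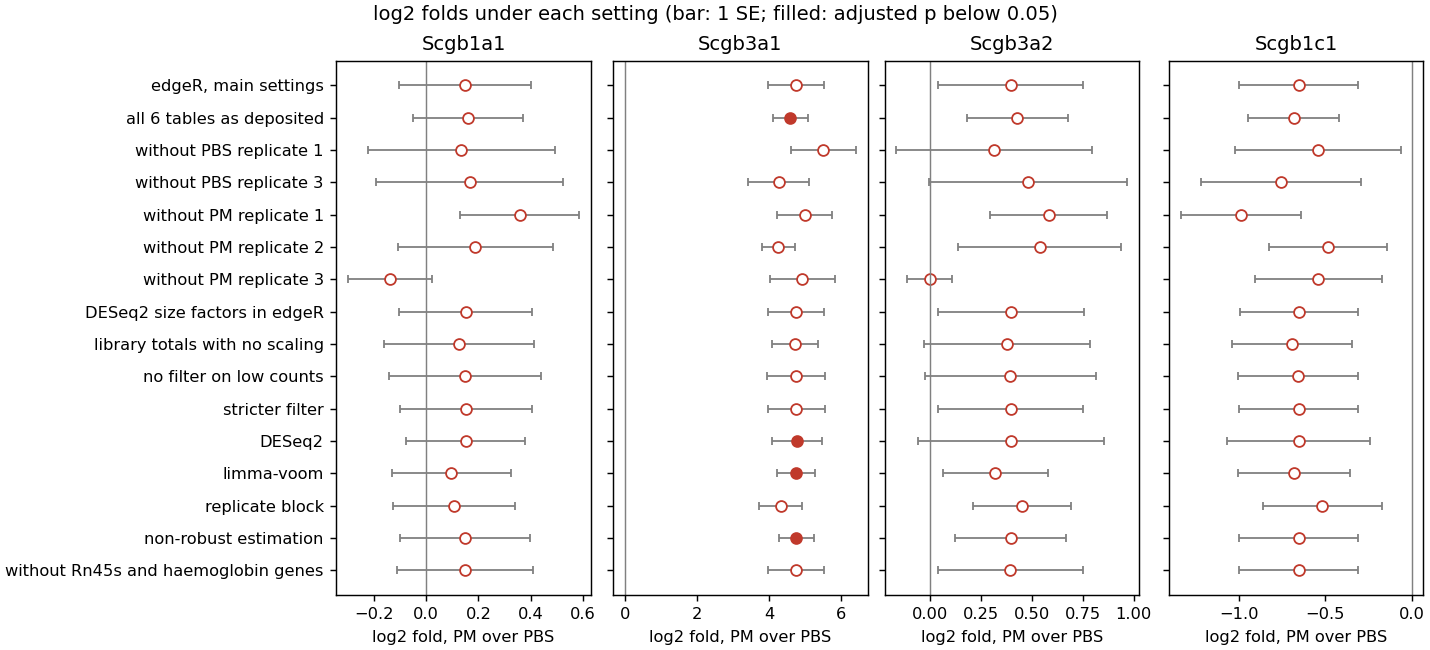
log2 fold of PM over PBS for each secretoglobin (horizontal axes, each with its own range) under the main settings and 15 alternatives (rows), with bars of 1 SE and filled points for an adjusted p below 0.05. Scgb3a1 lay between 4.26 and 5.51 in all rows and was past the threshold in 4 of the alternatives. The 4 include the fit with all 6 tables, which enters 1 PBS library as 2 replicates. The other members were past the threshold in none.

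Other genes of club cells were followed by a list of 30, all of which were tested. None was called by edgeR. At an unadjusted p below 0.05, 8 were higher and 2 lower, beside 7.26% and 6.05% of all tested genes. DESeq2 called 6 as higher and 0 as lower, beside 1.90% and 0.818% of all tested genes, and limma-voom called 0. The median log2 fold of the list was 0.16, beside 0.01 for all tested genes. Every PM value exceeded every PBS value for 9 of the 30 genes, and the reverse held for 1, beside 15.5% and 16.1% of all tested genes. Cyp2f2 stood at 1012, 1004.5 and 1744 CPM in PM replicates 1, 2 and 3, against 1055 and 1275 CPM in PBS replicates 1 and 3, overlapping as Scgb1a1 did (log2 fold 0.11 ± 0.26 SE, adjusted p = 0.913, edgeR).

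The 5 members of that list with the smallest p in edgeR were not past its test, though their groups did not overlap. DESeq2 called all 5 as higher (adjusted p from 7.29e-05 to 0.0453), beside 1.90% of all tested genes, and limma-voom called none. Gabrp, a subunit of the GABA-A receptor found in epithelia, stood at 96.3, 129 and 113 CPM in PM and 70.7 and 65.9 CPM in PBS (log2 fold 0.72, adjusted p = 0.0530, edgeR). Lypd2, a secreted or membrane-anchored Ly6 family protein, stood at 19.8, 42.9 and 21.6 CPM in PM and 6.37 and 8.64 CPM in PBS (1.90, adjusted p = 0.0940, edgeR). Chad, the matrix protein chondroadherin, was at 36.7, 61.6 and 24.5 CPM in PM and 13.0 and 12.8 CPM in PBS (1.66, adjusted p = 0.147, edgeR). The cytochrome P450 genes Cyp2a5 and Cyp2s1 had log2 folds of 1.22 and 0.74 (adjusted p = 0.0592 and 0.122, edgeR). The Cyp2a5 value is uncertain, since 54.6% of its 31-base stretches occur in other genes, among them Cyp2a4.

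Of 20 genes for transcription factors and Notch pathway members that act in secretory airway cells, 1 rose and 0 fell in edgeR's test, beside 0.142% and 0.0854% of all tested genes. An unadjusted p below 0.05 marked 5 as higher and 0 as lower (all tested genes, 7.26% and 6.05%), DESeq2 called 3 as higher (all tested genes, 1.90%) and limma-voom 0. The median log2 fold was 0.20, against 0.01 for all tested genes. Sox2, which marks and maintains airway epithelium, stood at 24.4, 34.5 and 29.5 CPM in PM and 11.6 and 13.0 CPM in PBS (log2 fold 1.26 ± 0.21 SE, adjusted p = 0.0379, edgeR). Its call held under 10 other settings, among them DESeq2 (adjusted p = 0.000128) and edgeR without PM replicate 2 or PM replicate 3 (0.0333 and 0.0179). The 10 include the fit with all tables as deposited, which enters the same PBS library more than once. Under 5 it was lost, including edgeR without PM replicate 1 (adjusted p = 0.0726), without robust estimation (0.0569) and by limma-voom (adjusted p = 0.0900). The other losses came without PBS replicate 1 or PBS replicate 3, with log2 folds of 1.18 and 1.34, where a lone PBS library was left. Over the leave-one-out fits the log2 folds were 1.14 to 1.38. Nkx2-1, which drives Scgb1a1 and Scgb3a2 transcription, had 53.4, 56.3 and 68.6 CPM in PM and 44.96 and 40.6 CPM in PBS (0.47, adjusted p = 0.191, edgeR). Foxa2, a partner of Nkx2-1 in the airways, had 121, 109.9 and 118 CPM in PM and 136 and 129 CPM in PBS (-0.19, adjusted p = 0.501, edgeR).

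The remaining regulators chosen by rule did not pass edgeR's test. DESeq2 called Cebpb and Elf3 as higher (adjusted p = 0.00467 and 0.00417) but not Foxa3 or Cebpa. Cebpb and Elf3, factors of epithelial and inflammatory responses, had log2 folds of 0.57 and 1.38 (adjusted p = 0.0592 and 0.245, edgeR), and Foxa3, a factor of mucous cells, one of 2.05 at 2.22 to 4.59 CPM in PM and 0.370 and 1.04 CPM in PBS (adjusted p = 0.220, edgeR). Cebpa, which acts with Nkx2-1 on secretoglobin promoters, had a log2 fold of 0.07 (adjusted p = 0.929, edgeR). Exons of Cebpb, Elf3 and Cebpa overlap those of another gene on the opposite strand.

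Genes for receptors, uptake proteins and enzymes named in connection with secretoglobins made up a list of 10, with 9 tested. edgeR called none, an unadjusted p below 0.05 marked 3 as higher and 1 as lower (all tested genes, 7.26% and 6.05%), DESeq2 called 3 as higher (all tested genes, 1.90%) and limma-voom 0. The median log2 fold was 0.67. Marco, a macrophage scavenger receptor that binds Scgb3a2, stood at 52.1, 1.72 and 55.4 CPM in PM replicates 1, 2 and 3, against 0.811 and 3.83 CPM in PBS replicates 1 and 3. It was high in PM replicates 1 and 3 and at the PBS level in PM replicate 2, the library with the most Scgb3a1 (log2 fold 3.99 ± 1.94 SE, adjusted p = 0.510, edgeR). Sdc1, the proteoglycan syndecan-1, stood at 70.8 to 83.1 CPM in PM and 72.4 and 74.5 CPM in PBS (0.09, adjusted p = 0.805, edgeR).

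Pla2g2d, a secreted phospholipase A2, had 11.7, 12.3 and 6.68 CPM in PM and 2.20 and 2.59 CPM in PBS (log2 fold 2.09, adjusted p = 0.0525, edgeR). Lrp2 (megalin), an endocytic receptor, had a log2 fold of 0.64, Fpr2, a formyl peptide receptor, of 0.82, Pla2g4a, the cytosolic phospholipase A2, of 0.67, and Tgm2, a transglutaminase, of -0.35, none past edgeR's test. DESeq2 called Pla2g2d, Fpr2 and Lrp2 as higher (adjusted p = 0.000423, 0.0180 and 0.0475) but neither Pla2g4a nor Tgm2. Reads of Fpr2 may be shared with its paralogs, since 43.0% of its 31-base stretches occur in other genes. Exons of Tgm2 overlap those of 2 genes on the opposite strand.

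**Figure D4:**
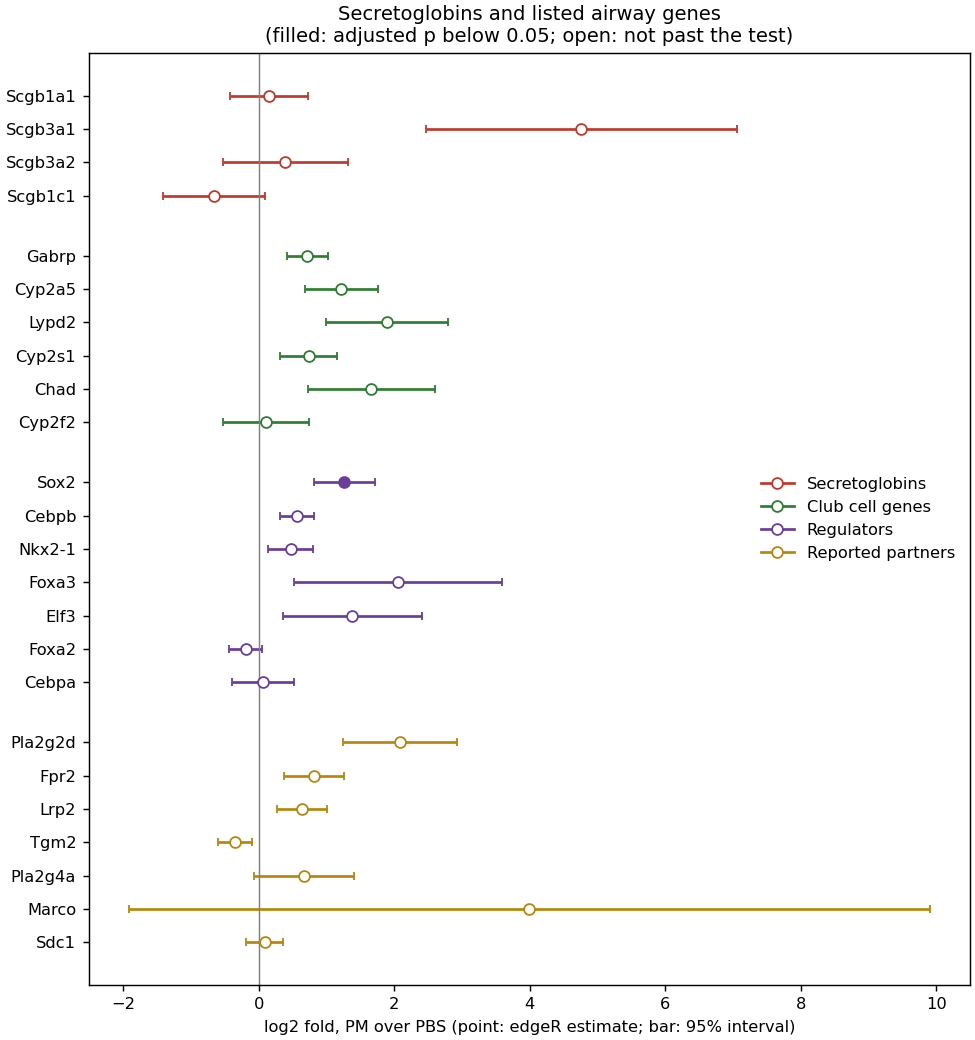
log2 fold of PM over PBS (horizontal axis; point, edgeR estimate; bar, 95% interval) for the 4 secretoglobins, then club cell genes, regulators and reported partners chosen by rule. Filled points mark an adjusted p below 0.05, which held for Sox2 alone; Scgb3a1 had the largest fold of the genes drawn, at 4.76.

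Markers of mucus-producing goblet cells had higher values in PM libraries, without passing edgeR's test. Of 12 markers 9 were tested, with a median log2 fold of 4.45 (also with Clca1, at 0 in PBS, at its bound of 3 counts per PBS library), and 8 of them had higher values in each PM library than in both PBS libraries, beside 15.5% of all tested genes. The summed level of the list was 589.6, 2377 and 163 CPM in PM replicates 1, 2 and 3, against 17.3 and 12.7 CPM in PBS replicates 1 and 3. PM replicate 2 was highest in that sum and in Scgb3a1. PM replicates 1 and 3 were close in Scgb3a1, at 311 and 351 CPM, and stood at 589.6 and 163 CPM in the sum. Clca1, a secreted goblet cell protein, had 288, 1161 and 33.9 CPM in PM and 0 counts in both PBS libraries, and Itln1, an intestinal-type lectin, had 139, 700.3 and 48.7 CPM in PM and 0.464 and 0.741 CPM in PBS. The mucin Muc5ac had 9, 41 and 0 counts in PM and 0 counts in both PBS libraries. edgeR called 0 of the 9, 6 had an unadjusted p below 0.05 and were higher (all tested genes, 7.26%), DESeq2 called 8 as higher (all tested genes, 1.90%) and limma-voom 0. The part of these cells in the Scgb3a1 result was not tested.

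Other marker lists had medians closer to 0. For 15 ciliated cell markers the median log2 fold was 0.76, 13 had a fold above 0, and 7 had every PM value above every PBS value (all tested genes, 15.5%). Their summed level was 1849 to 2534 CPM in PM and 1983 and 2015 CPM in PBS. Most of that sum was Sec14l3, the most abundant of them, with a log2 fold of 0.04, followed by Tppp3 with -0.08. Medians were 0.13 for 10 alveolar type 2 markers, the most abundant being Sftpc (0.08) and Sftpb (-0.02), and 0.12 for 10 general epithelial markers, of which 7 were above 0, though the most abundant, Cdh1 (-0.05) and Krt7 (-0.08), were not. For 8 alveolar type 1 markers the median was -0.35, with Ager at -0.41 and Emp2 at -0.36. All 8 had a log2 fold below 0, and 7 had every PM value below every PBS value (all tested genes, 16.1%). None of these members was called by edgeR, and at an unadjusted p below 0.05 the ciliated, type 2, epithelial and type 1 lists had 8, 2, 1 and 0 members higher and 0, 0, 0 and 5 lower, beside 7.26% and 6.05% of all tested genes. DESeq2 called 5, 1, 0 and 0 as higher and 0, 0, 0 and 2 as lower, beside 1.90% and 0.818%, and limma-voom called none. The part of these cells in the secretoglobin values was not tested.

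Defining markers of airway cartilage and of basal cells were at or near 0. Of 14 markers of airway cartilage and glands 13 were in the tables, 3 of which were at 0 counts in every library and 3 of which were tested. Col2a1 and Matn1, defining genes of cartilage, were at 0 throughout. Of the tested ones, Ltf, a gland and neutrophil protein, stood at 8.58 to 25.5 CPM in PM and 0.617 and 1.16 CPM in PBS (log2 fold 3.99, adjusted p = 0.0566 by edgeR and 4.58e-08 by DESeq2). Lyz1, whose reads may be shared with Lyz2, had a log2 fold of -0.33, and Sox9, a factor of cartilage and of distal and glandular epithelium, stood at 3.04, 7.31 and 4.79 CPM in PM and 1.85 and 1.48 CPM in PBS. Only 1 of 6 basal cell markers, Dapl1 (log2 fold -0.49), and 1 of 6 neuroendocrine markers, Uchl1 (1.25), were tested. edgeR called neither, and DESeq2 called Uchl1 (adjusted p = 0.0461). The defining basal genes Krt5 and Krt14 had at most 3 counts in any library.

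The genes with the profile nearest to each member were found by the root mean square difference of log2(CPM + 0.5), each gene centred on its own mean, over the 5 distinct libraries and 9005 candidate genes with a mean of at least 10 CPM. Nearest to Scgb3a1 were Reg3g, an antibacterial lectin of mucosal epithelia (difference 0.48), Alox12e, an epidermal-type lipoxygenase (0.49), and Mmp12, the macrophage elastase (0.68), beside a spread of 2.39 for Scgb3a1 itself. Reg3g, which is also in the club cell list, stood at 55.3, 136 and 33.8 CPM in PM and 4.29 and 0.494 CPM in PBS. It too was highest in PM replicate 2 and lowest in PBS replicate 3, a likeness for which it was chosen. None of these 3 genes was past edgeR's test, with adjusted p from 0.192 to 0.308, or limma-voom's, with 0.190 to 0.272. DESeq2 called all 3 as higher, beside 1.90% of all tested genes (adjusted p = 0.00277 for Reg3g, 9.61e-05 for Alox12e and 0.000527 for Mmp12).

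Scgb1a1 and Scgb3a2 had other neighbours, with small spreads of their own. Nearest to Scgb1a1, whose spread was 0.31, were Hsdl1 (0.05), a hydroxysteroid dehydrogenase-like gene, Ctgf (0.07), a matricellular growth factor, and Sec14l2 (0.07), a lipid-binding protein. Nearest to Scgb3a2, whose spread was 0.39, were Glul (0.06), glutamine synthetase, Zbtb42 (0.09), a zinc finger protein, and Lonrf3 (0.11). All 6 were highest in PM replicate 3, the library in which Scgb1a1 and Scgb3a2 were also highest. This shared peak comes with the choice of genes by nearest profile. Scgb1c1, below 10 CPM on average, was not searched.

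**Figure D5:**
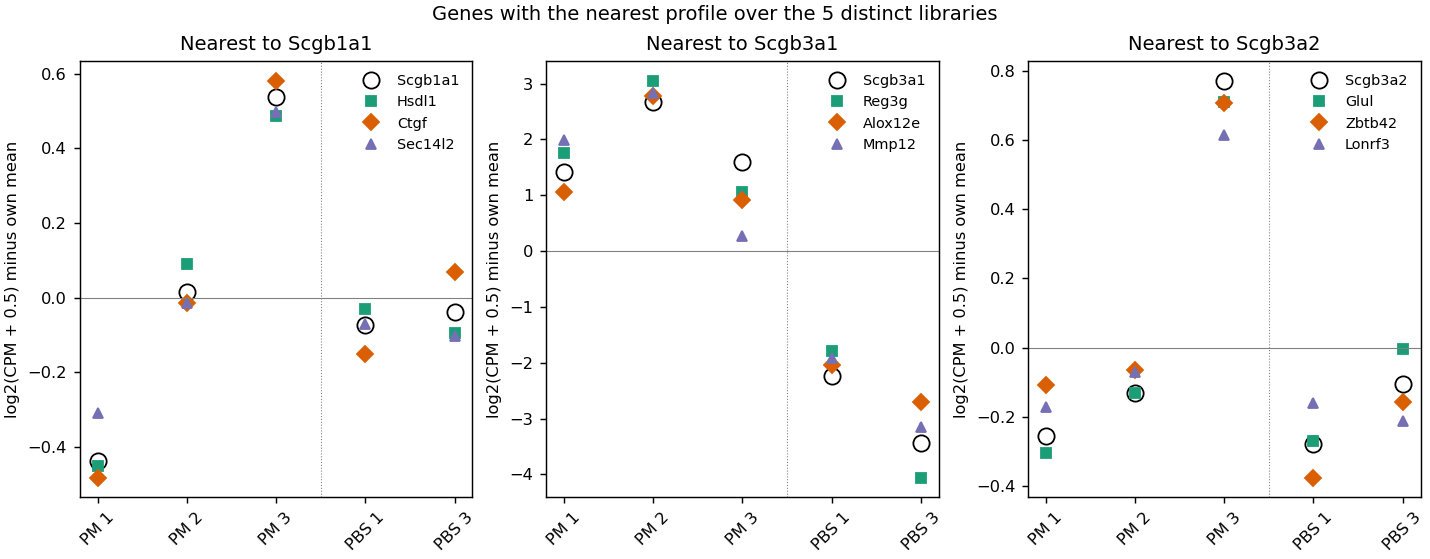
log2(CPM + 0.5) minus the gene's own mean (vertical axes, each with its own range) in the 3 PM and 2 distinct PBS libraries for Scgb1a1, Scgb3a1 and Scgb3a2 (open circles) and the 3 genes nearest to each. Scgb3a1 and its neighbours lay above their means in all PM libraries and below them in PBS, and the other 2 sets were highest in PM replicate 3. The neighbours were chosen for this likeness.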

How the data were processed

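RNA of lung tissue was sequenced from 6 samples with Lexogen's SENSE mRNA-Seq kit, per the labels' protocols. TopHat, Cufflinks and the build mm10 are named in the submitters' processing notes; the sources used here do not state versions, the counting program, annotation or strand use. The authors deposited whole-number counts per gene symbol. Of repeated symbols only the most counted entry was used, which set aside 0.0246% of counts, and 1 entry with no symbol (PBS replicate 1) was dropped. Identical PBS tables counted once.

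Counts were fitted with edgeR 4.0.16 in R 4.3.3 (filterByExpr, TMM, robust quasi-likelihood test, two-sided, Benjamini-Hochberg over 14057 genes, called below an adjusted p of 0.05). DESeq2 1.42.0 and limma-voom (limma 3.58.1) were alternatives, beside those given in the closing section. The SE comes from the log2 fold and F, and 95% intervals use edgeR's total degrees of freedom. RPKM and exon overlaps rest on GENCODE M21, and coordinates and promoters on RefSeq for GRCm38.p6, the assembly of mm10; Scgb3a1 and Scgb1c1 matched the promoter table. The fit was also run on simulated counts that gave every gene the same spread. That run does not show how the fit does for members that vary more between libraries.

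The members and gene lists were chosen with earlier results of these data known. Named genes were the members, the 5 smallest p-values of the club cell, regulator and partner lists with 6 fixed genes, the 2 most abundant tested genes of each marker list and the 3 nearest profiles; Muc5ac, Krt5, Krt14, Col2a1, Matn1, Sox9 and C330022C24Rik were named after their values were seen.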

Additional observations from a re-analysis of the deposited data

How the results depend on the processing

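Counts of called genes depended on the fit, while the sign of the Scgb3a1 fold did not. edgeR's main fit called 32 genes, against 635 with all 6 tables as deposited, which enters 1 PBS library as 2 replicates. It called 51 with library totals not scaled, 275 with no filter on low counts, 1 to 427 with each library left out in turn, and DESeq2 called 382 and limma-voom 17. The log2 fold of Scgb3a1 passed the threshold with all 6 tables (4.58), by DESeq2 (4.77), by limma-voom (4.75) and without robust estimation (4.76). With each library left out in turn it was 4.26 to 5.51 and not past the threshold. In the same leave-one-out fits Scgb1a1 was at -0.14 to 0.36 and Scgb3a2 at -0.0017 to 0.58, both below 0 only without PM replicate 3, and Scgb1c1 at -0.99 to -0.49. A lone PBS library was assumed to vary like the PM libraries. The ratios to Scgb1a1 kept their sign without each library and against Cyp2f2. No scaling moved the median log2 fold of all genes by over 0.1.

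PM and PBS share replicate numbers, but the labels tie them to no animal, batch or day. Deviations from the group means, across genes, correlated at -0.028 for replicate 1 and 0.050 for replicate 3. PM replicate 2 and PBS replicate 1, which share no number, correlated at 0.070. The deviations of 2 PBS libraries mirror each other, so these values cannot decide whether libraries are paired. With the replicate number as a block edgeR called 353 genes, and the log2 folds were 0.11 for Scgb1a1, 4.32 for Scgb3a1, 0.45 for Scgb3a2 and -0.52 for Scgb1c1, none past the threshold. In that fit PM replicate 2 stood alone in its block, without a distinct PBS library, and so did not inform the folds. Depth limits Scgb1c1 most, at 28 to 79 counts per library.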
